A study of Mus musculus with 24 samples.

Results

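The genes of heme synthesis were followed in whole blood and cerebral cortex of mouse neonates whose mothers had breathed nano-sized particulate matter (nPM) or filtered air during pregnancy. The 9 genes were taken by symbol from the deposited gene table: Alas1, Alas2, Alad, Uros, Urod, Cpox, Ppox, Fech and Slc25a37. They are 9 of 48709 annotated genes, and 8 of the symbols name enzymes while Slc25a37 names the carrier that brings iron into mitochondria. All 9 genes had at least 1 count in every library and entered every fit.

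The 24 RNA-seq libraries came from 12 blood and 12 cerebral cortex samples, with 3 libraries for each combination of tissue, sex and exposure. Control pups came from dams in filtered air and nPM-exposed pups from dams that inhaled nPM, a fraction of urban traffic particles, for 5 hours on 3 days of each week from gestational day 2 until birth. The dose was 300, in mg/m3 in the sample labels and in μg/m3 in the methods of the study. All groups shared the strain, labelled C57BL/6J (C57BL/6NJ in the methods), and an age of 3 to 5 days, and each held females and males with no transgene or other treatment. Which blood and cortex samples came from the same pup is not given in the labels. Replicates are numbered here by the order of the samples within a group. The same number in blood and cortex does not mean the same pup. In blood, control female replicates 2 and 3 are titled V2 and V4, and nPM female replicate 3 is titled V3.

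Heme is an iron-bearing ring that carries oxygen in hemoglobin and electrons in cytochromes, so every cell with mitochondria makes some of it and red cell precursors make most of it. The pathway starts in mitochondria, where aminolevulinic acid synthase joins glycine and succinyl-CoA, continues in the cytosol, and ends in mitochondria with the insertion of iron. Mammals have a pair of genes for the first and rate-limiting step. Alas1 serves all tissues and is repressed by heme, while Alas2 is restricted to the red cell lineage, lies on the X chromosome, and answers to GATA-type erythroid factors and to iron.

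On mm10, the annotation placed Alas1 (ENSMUSG00000032786) at chr9:106233455-106248126 on the minus strand and Alas2 (ENSMUSG00000025270) at chrX:150547375-150570638 on the plus strand. Alad (ENSMUSG00000028393) and Urod (ENSMUSG00000028684) both lie on the minus strand of chromosome 4, at chr4:62509169-62519918 and chr4:116989965-116994413. Uros (ENSMUSG00000030979) was placed at chr7:133686243-133710072 on the minus strand, and Cpox (ENSMUSG00000022742) at chr16:58670208-58680391 on the plus strand. Ppox (ENSMUSG00000062729) was placed at chr1:171275990-171281186 and Slc25a37 (ENSMUSG00000034248) at chr14:69241848-69285112, both on the minus strand. Fech (ENSMUSG00000024588) completes the set. All are protein-coding, and the values below are counts over all exons of a gene.

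The 250 bases before the annotated RefSeq start (GRCm38.p6) are shown for 3 of the genes: the housekeeping and the erythroid synthase, because their order was opposite in the 2 tissues, and Cpox, because its level varied most among the blood libraries. Capitals mark the letters GATA with A or T before them and A or G after them, read on either strand, the usual spelling of a site for GATA factors.
Alas1 (second start, chr9:106247731-106247980, minus strand): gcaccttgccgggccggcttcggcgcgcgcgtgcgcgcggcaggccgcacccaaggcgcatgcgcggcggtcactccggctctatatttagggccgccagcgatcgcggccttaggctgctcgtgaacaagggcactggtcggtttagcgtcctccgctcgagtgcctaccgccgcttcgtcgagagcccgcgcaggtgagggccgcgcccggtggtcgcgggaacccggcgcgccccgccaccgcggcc
Alas2 (chrX:150547167-150547416, plus strand): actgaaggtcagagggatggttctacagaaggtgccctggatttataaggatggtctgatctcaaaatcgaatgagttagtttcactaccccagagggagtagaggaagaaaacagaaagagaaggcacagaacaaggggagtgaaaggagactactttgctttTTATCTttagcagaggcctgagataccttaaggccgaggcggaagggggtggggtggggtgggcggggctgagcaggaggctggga
Cpox (chr16:58669958-58670207, plus strand): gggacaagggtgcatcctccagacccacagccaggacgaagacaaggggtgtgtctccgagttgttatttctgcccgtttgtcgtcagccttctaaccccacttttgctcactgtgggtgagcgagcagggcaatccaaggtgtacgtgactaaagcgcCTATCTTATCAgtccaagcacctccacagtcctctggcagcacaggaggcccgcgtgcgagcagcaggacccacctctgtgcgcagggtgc
The Alas2 window held 1 match, beginning 86 bases before the start, and the Cpox window held 2 overlapping matches, beginning 91 and 86 bases before it. Neither annotated start of Alas1 had a match. Windows were taken for 7 of the 9 genes, with 10 start sites among them. Of the windows not shown, only that of the second start of Uros held matches (2, at 205 and 68 bases). These letters occurred in 26.5% of all 32851 promoter windows of this length. The letters CACCC, bound by Klf1-type factors, occurred on either strand 3 times in the Alas2 window, 4 times in that of Cpox and 1 time in each Alas1 window, and at least once in 52% of all windows. These matches describe the letters and not binding.

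Library totals ran from 22301410 to 33804370 counts in cortex and from 13595650 to 21895540 in blood. Globin transcripts took 66.2 to 76.8% of the counts in 11 blood libraries and 50.1% in the control female replicate 2, which also had 22461 detected genes against 13254 to 17273 in the other blood libraries. That library was left out of the blood comparisons, as the study left out 1 blood library, so blood values below are from 11 libraries (5 control and 6 nPM). The tissue labels matched their markers. The neuronal gene Snap25 had a median of 596 CPM (counts per 1000000 counts of the library) in cortex and was at 0 in 6 of 11 blood libraries. The red cell anion exchanger Slc4a1 had a median of 2758 CPM in blood and 1.6 CPM in cortex. Blood libraries were sequenced in lanes 1 and 3 and cortex libraries in lanes 2 and 3, as labelled.

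In blood the erythroid synthase, the ferrochelatase Fech and the iron carrier Slc25a37 were far above the other genes. Alas2 stood at 9056 ± 1092 CPM per kilobase of transcript (mean ± SD, n = 11). Fech, which inserts iron into the porphyrin ring, followed at 1202 ± 186 CPM per kilobase, and Slc25a37, mitoferrin-1, at 697 ± 170. Urod, which decarboxylates uroporphyrinogen, stood at 48.6 ± 10.1 CPM per kilobase. The remaining enzymes were much lower: Cpox, the coproporphyrinogen oxidase, at 8.77 ± 4.74, Alad, which forms porphobilinogen, at 3.36 ± 1.33, Ppox, the protoporphyrinogen oxidase, at 2.17 ± 0.45, and Uros, which closes the ring, at 1.16 ± 0.44 CPM per kilobase. Alas1 was last at 0.203 ± 0.069 CPM per kilobase, resting on 6 to 30 counts per library. Each gene in this order exceeded the next in 11 of 11 libraries, although the ranges over libraries overlapped for Fech and Slc25a37, for Cpox and Alad, for Alad and Ppox, and for Ppox and Uros.

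Transcripts of the 9 genes made up 2.96 ± 0.40% of all counts in blood (n = 11), and 10.9 ± 0.68% of the counts left after globins were set aside. In cortex they made up 0.0205 ± 0.00097% (n = 12). Per kilobase, Alas2 supplied 79.5 to 84.6% of the summed level of the 9 genes in blood and 4.88 to 11.7% in cortex. The ratio of Alas2 to Alas1 per kilobase ranged from 27067 to 89759 in blood with a median of 39035, and from 0.258 to 0.675 in cortex. Alas2 was therefore above Alas1 in every blood library and below it in every cortex library.

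**Figure D1:**
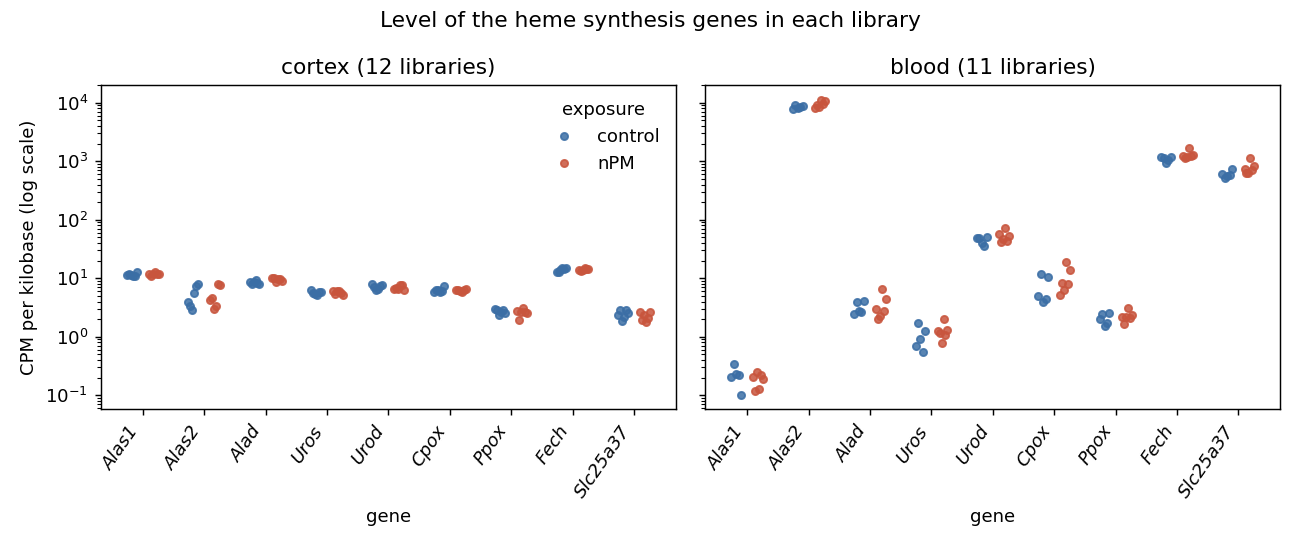
Level of each of the 9 genes in CPM per kilobase on a log axis, 1 point per library, for 12 cortex and 11 blood libraries (blue control, red nPM). In cortex the 9 gene means lie between 2.35 and 14 CPM per kilobase, and in blood between 0.203 for Alas1 and 9056 for Alas2.

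In cortex the same genes lay close together. Fech was highest at 14 ± 0.84 CPM per kilobase (n = 12) and Alas1, the housekeeping synthase, followed at 11.6 ± 0.62. Alad stood at 8.99 ± 0.76, Urod at 7.07 ± 0.57, Cpox at 6.26 ± 0.44 and Uros at 5.72 ± 0.38 CPM per kilobase. The level of Alas2 was 5.14 ± 2.03 CPM per kilobase, above Ppox at 2.66 ± 0.31 and Slc25a37 at 2.35 ± 0.38. The ranges of neighbours in this order overlapped except between Alas1 and Alad and between Alad and Urod. Uros exceeded Alas2 in 7 of 12 libraries, so that pair had no fixed order. Alas2 had a coefficient of variation of 39.5% over the cortex libraries, against 5.36 to 16.3% for the other 8 genes.

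The comparison of control blood (n = 5) with control cortex (n = 6) asked how the levels of these genes differed between whole blood and cortex. All 9 genes passed an adjusted p of 0.05 in edgeR's quasi-likelihood test, in a fit where 86.2% of 10275 genes did, so passing was common. The direction was higher in blood for 8 of them, against 39.5% of all genes, and lower for Alas1, against 46.8%. In plain CPM, which do not correct for globins, Alas2 averaged 20468 in control blood and 12.4 in control cortex. Its fitted log2 fold change, with library sizes scaled by the trimmed mean of M-values (TMM), was 14.84 (SE 0.39). Slc25a37 was higher by 12.13 (SE 0.27) on the log2 scale, Fech by 10.47 (SE 0.23) and Urod by 6.80 (SE 0.19). These were the 3 largest differences after Alas2, each beyond the spread of the libraries (edgeR adjusted p = 9.07e-16, 6.64e-16 and 5.18e-15).

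The size of the differences between blood and cortex depended on the scaling. Over the settings tried, the lowest log2 fold change was 10.33 for Alas2, 7.61 for Slc25a37, 5.95 for Fech and 2.29 for Urod. For Cpox, Ppox, Alad and Uros the side of 0 changed as well. Under TMM the log2 fold changes were 4.19 (SE 0.24) for Cpox, 3.74 (SE 0.16) for Ppox, 2.69 (SE 0.12) for Alad and 1.63 (SE 0.18) for Uros. When only library totals were used, the median of all genes was lower by 4.46 than under TMM, and these genes stood at -0.29 for Cpox (edgeR adjusted p = 0.213), -0.76 for Ppox, -1.79 for Alad and -2.84 for Uros. In plain CPM of the same control libraries Alad averaged 15.9 in cortex and 5.99 in blood, Uros 20.3 and 3.66, and Ppox 12.3 and 9.26, all lower in blood. Cpox averaged 20.2 ± 1.94 CPM in cortex (n = 6) and 22.7 ± 12 in blood (n = 5), a difference within the spread of the blood libraries. Relative to the median of all genes in the same fit, Cpox was higher in blood by 4.03 to 5.01 on the log2 scale over every setting tried, Ppox by 3.61 to 4.14, Alad by 2.59 to 3.06 and Uros by 1.46 to 2.13. Alas1 was lower in blood under both scalings, by a log2 fold change of -1.53 (SE 0.17; edgeR adjusted p = 2.41e-07) under TMM and -5.99 on library totals, and by -1.69 to -1.02 relative to the median. Under TMM, all 9 genes kept their direction among control libraries of lane 3 alone, with 1 female and 1 male library of each tissue. They also kept it between lane 2 cortex and lane 1 blood, where Alas2 was at 15.26. Library totals were not tried within lanes. The RNA integrity number was 7.5 to 9.3 in control blood and 9.4 to 9.8 in control cortex and was not in this fit. Its part cannot be told apart from that of tissue. In whole blood, fewer cells of a type and less RNA per cell cannot be told apart.

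**Figure D2:**
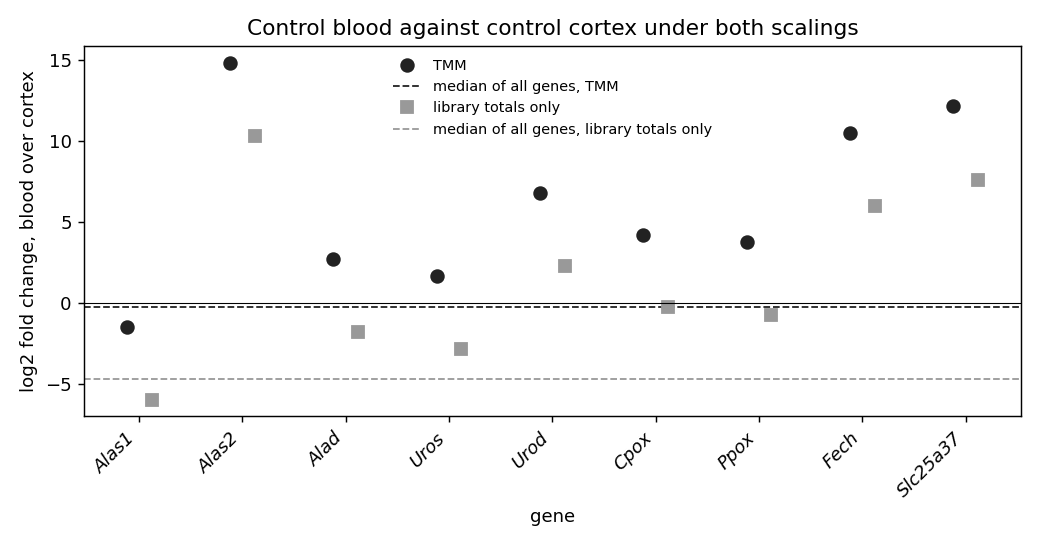
log2 fold change of control blood (n = 5) over control cortex (n = 6) for each gene, with TMM scaling (black circles) and with library totals only (grey squares). Dashed lines give the median of all genes, which was lower by 4.46 on library totals, and Alad, Uros, Cpox and Ppox change side of 0 while every gene but Alas1 stays above its dashed line.

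The genes around the pathway were compared between the same control libraries under TMM. Of all genes tested, 39.5% were higher in blood and 46.8% lower at an edgeR adjusted p of 0.05. Genes with 0 counts in any of these libraries were not tested. In control blood and cortex, Tfr2 had 0.23 and 9.49 plain CPM and Flvcr2 0.051 and 3.71. Slc46a1 had 0.046 and 7.64, Ppargc1a 0.079 and 37.9, and Blvra 1.04 and 10.5. The untested Gata1 (8.11 and 0) and Nfe2 (16.6 and 0.072) lay the other way. Of 3 tested genes of heme breakdown, 2 were higher in blood, the biliverdin reductase Blvrb (log2 fold change 9.49) and the inducible heme oxygenase Hmox1 (2.16), and Hmox2, the constitutive oxygenase, was lower (-1.66). Of 10 tested genes of heme, porphyrin and mitochondrial metabolite transport, 7 were higher and 2 lower. The highest were Slc25a39, a mitochondrial glutathione carrier (9.06), the heme transporter Slc48a1 (6.98), Fam210b (6.64) and the porphyrin transporter Abcb6 (6.59). Among the 7 tested regulators of the synthases, 4 were higher, with the erythroid factor Klf1 at 8.03 and the heme-regulated kinase Eif2ak1 at 3.93. The iron regulatory proteins Aco1 (-1.92) and Ireb2 (-1.23) were lower. Of 11 tested genes of iron supply and iron-sulfur clusters, 9 were higher and 0 lower (edgeR; 0 lower also at an unadjusted p under 0.05), including the cluster assembly genes Isca1 (8.69), Iscu (6.78) and Glrx5 (6.30), the ferritin Ftl1 (6.86) and the transferrin receptor Tfrc (3.58). On library totals, where the median of all genes was lower by 4.46, the side of 0 changed for 1 of the 3 genes of breakdown, 3 of the 10 of transport, 4 of the 7 regulators and 5 of the 11 of iron supply. Of the genes named here these included Hmox1 (-2.30), Eif2ak1 (-0.56) and Tfrc (-0.88), and Hmox1 averaged 0.79 CPM in control blood and 3.13 CPM in control cortex.

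In cortex the level of Alas2 went with the lane and with globin transcripts. The 8 libraries of lane 2 had 7.11 to 13.4 TMM-scaled CPM of Alas2 (mean 9.26 ± 2.18) and the 4 libraries of lane 3, which also carried blood libraries, had 17.4 to 19.5 (mean 18.5 ± 0.87), so the lanes did not overlap. Each lane held both exposures. Globins took 0.0244 to 0.0445% of the counts in lane 2 and 0.0614 to 0.0678% in lane 3. From lane 2 to lane 3 the mean of Alas2 rose 2.00-fold in plain CPM and the summed globins 2.14-fold, a step of 26.5 CPM of Alas2 for each 1000 CPM of globins. The other 8 genes had overlapping ranges between the lanes. Summed over the erythroid list, the 2 lanes overlapped at 170 to 196 CPM in lane 2 and 178 to 187 CPM in lane 3. Of that sum, 96.4 to 98.9% came from Sptb, Bpgm and Ank1, with medians of 93.2, 54.5 and 26.3 CPM, which brain also expresses, while the other 9 genes had medians from 0 to 1.60 CPM. The sum in cortex is therefore no measure of red cell transcripts. Within the list Slc4a1 ranged from 0.792 to 3.22 CPM over the cortex libraries, and Rhag was at 0 in 8 of 12. The embryonic globins Hba-x and Hbb-bh1 were at 0 in all 12. The part of blood or of the lane in the cortical Alas2 counts was not tested.

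Relative to globins, Alas2 differed between the tissues by less than the spread of the libraries. There were 29.6 ± 2.85 Alas2 counts for each 1000 globin counts in cortex (n = 12, range 23 to 32.9) and 30.1 ± 4.87 in blood (n = 11, range 25.2 to 40.9). The left-out blood library had 29.6. For Slc25a37, which other tissues also express, the same ratio was 38.3 ± 14.6 in cortex and 5.81 ± 1.68 in blood.

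**Figure D3:**
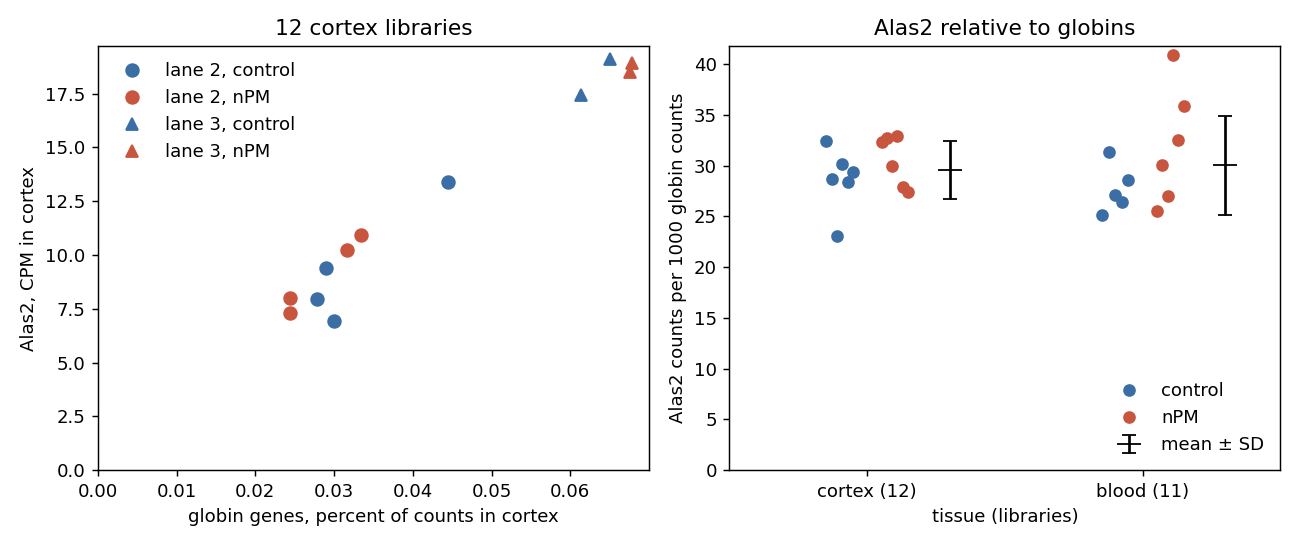
Left, plain CPM of Alas2 against the percent of counts on globin genes in 12 cortex libraries, circles for lane 2 and triangles for lane 3 (blue control, red nPM), where the lane 3 libraries sit above 17 CPM and the lane 2 libraries below 14. Right, Alas2 counts per 1000 globin counts in each library with mean ± SD, 29.6 ± 2.85 in 12 cortex and 30.1 ± 4.87 in 11 blood libraries.

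Across libraries, 4 relations of Alas2 with red cell transcripts were computed on log2 TMM-scaled CPM. Over all 12 cortex libraries, the set first planned, Alas2 and summed globins had Pearson's r = 0.97. There the lanes form separate clusters, so only lane 2 (n = 8) was used in cortex. Within it Alas2 and summed globins had r = 0.85 (exact permutation p = 0.007019, adjusted 0.01404) and Spearman's rho = 0.74 (exact permutation p = 0.04583, adjusted 0.06111). Without the 2 libraries farthest from the median globin level r was 0.67. Without control male replicate 2 alone it was 0.65 and did not pass (exact permutation p = 0.119). Passing thus rested on that library, as did part of the size of r. With the summed erythroid list r was 0.06 (exact permutation p = 0.899, adjusted 0.899) and rho 0.10 (exact permutation p = 0.8401, adjusted 0.8401), and r was 0.53 without the 2 farthest libraries, where that sum was nearly all Sptb, Bpgm and Ank1. In blood (n = 11) Alas2 and the erythroid list had r = 0.83 (permutation p = 0.00161, adjusted 0.00644) and rho = 0.82 (permutation p = 0.00301, adjusted 0.01204), with r = 0.65 without the 2 farthest. Within lane 1 (n = 7) r was 0.95 (exact permutation p = 0.002183), and lane 3 had 4 libraries, too few for a value. Alas2 and globins in blood had r = 0.59 (permutation p = 0.05433, adjusted 0.07244) and rho = 0.70 (permutation p = 0.02117, adjusted 0.04234), r = 0.20 without the 2 farthest, and r = 0.66 within lane 1 (n = 7, exact permutation p = 0.1113). In plain CPM, where globins are most of the total, r in blood was -0.88 with globins, and it was 0.56 with the erythroid list and no longer passed (permutation p = 0.0713).

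The genes whose levels were most like each synthase across libraries were ranked by r of log2 TMM-scaled CPM, as a description. In cortex (n = 12, 14468 genes) the nearest to Alas2 were the adult globins Hbb-bt (r = 0.97), Hbb-bs (0.97), Hba-a2 (0.95) and Hba-a1 (0.95), then Fam46c (0.93). Within lane 2 alone these values were 0.85, 0.83, 0.78, 0.72 and 0.65. The nearest to Alas1 in cortex were Tnip1 (0.91), Lrtm2 (0.90), Pnrc1 (0.87), Gstk1 (0.85) and Rtl8a (0.85). In blood (n = 11, 3465 genes) the nearest to Alas2 were March3 (0.95), Ypel3 (0.95), Isg20 (0.94), Ube2l6 (0.93) and Cabin1 (0.93). Of the pathway itself Fech ranked 40 (0.88) and Slc25a37 ranked 101 (0.85) near Alas2 in blood. For Alas1 in blood, at 6 to 30 counts, the nearest genes reached only 0.79 (Cdc6) and 0.78 (Gm26917). The points share lanes and depth.

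Model 1 asked whether prenatal nPM changed the genes, with sex and RNA integrity number (RIN) as covariates. In cortex 0 of the 9 genes passed an adjusted p of 0.05 in edgeR, where 0.0144% of 20857 genes did, and 1 of 9 had an unadjusted p under 0.05, where 5.67% of all genes did. No gene of the set was under the unadjusted p of 0.005 that the study used, which 0.614% of genes passed. The log2 fold changes ran from -0.13 for Slc25a37 to 0.16 for Alad, with 4 above 0 (48.9% of all genes were) and 5 below (51.1%), and a median of -0.00, as for all genes. P-values measure the spread between these samples, which within a tissue came from separate pups. The exposure was given to the dams, and the study took the pups of each sex and exposure from different litters. A female and a male of the same exposure may thus share a litter. Litters are not in the labels, so no fit held them.

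The gene with an unadjusted p under 0.05 in cortex was Alad, the cytosolic enzyme that forms porphobilinogen and is known for its inhibition by lead. In controls it ranged from 14.9 to 17.6 TMM-scaled CPM with a median of 15.5 (n = 6), and in nPM-exposed cortex from 16 to 19 with a median of 18 (n = 6). The ranges overlapped. The log2 fold change was 0.16 (SE 0.06, 95% interval 0.02 to 0.29), with an unadjusted edgeR p of 0.0241, an adjusted p of 0.862, and an exact permutation p of 0.0195 for the difference of means. In females the control libraries stood at 14.9, 15.5 and 15.5 and the nPM libraries at 18.2, 18.7 and 19. In males the control libraries stood at 15.4, 16.5 and 17.6 and the nPM libraries at 16, 16.6 and 17.9. The male groups overlapped and the female groups did not, which held for 2 of the 9 genes (Alad and Ppox) and for 21.6% of all genes. Fitted within sex, the log2 fold change was 0.27 (SE 0.08; edgeR adjusted p = 0.245) in females, with an unadjusted p of 0.00486 (2.01% of all genes were under 0.005), and 0.04 (adjusted p = 0.996) in males. The test of their difference gave -0.23 (SE 0.12; edgeR adjusted p = 0.562). None of the 3 passed the adjustment. Within lanes, the difference of mean log2 values was 0.14 in lane 2 and 0.16 in lane 3.

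For the other genes in cortex the intervals bound what could have been seen. Alas1 had a log2 fold change of 0.02 (95% interval -0.08 to 0.12), Fech 0.02 (-0.09 to 0.12) and Uros 0.01 (-0.10 to 0.13). For Alas2 it was -0.00 with an interval of -0.60 to 0.59, the widest of the set. Its SE of 0.28 was 0.13 with lane as a covariate (log2 fold change -0.013) and 0.084 with globin CPM as a covariate (0.069), so this width depends on the model. Control libraries had 7.11 to 19.5 TMM-scaled CPM of Alas2 and nPM libraries 7.30 to 18.8, and the lanes split both groups.

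In blood 0 of the 9 genes passed an adjusted p of 0.05 in edgeR (0% of 9977 genes did), and 0 of 9 had an unadjusted p under 0.05, where 3.11% of genes did (0.17% passed 0.005). DESeq2 and limma voom also called 0. The log2 fold change lay above 0 for 8 of the 9, against 50.4% of all genes, with a median of 0.09 against 0.00. Alas2 ranged from 15572 to 26609 TMM-scaled CPM in controls (median 21650, n = 5) and from 17839 to 27114 in nPM-exposed blood (median 21842, n = 6), so the groups overlapped throughout. Its log2 fold change was 0.09 (SE 0.26, 95% interval -0.46 to 0.63). The farthest from 0 were Cpox at 0.53 (SE 0.36) and Alas1 at -0.35 (SE 0.34). Without nPM female replicate 3, Cpox was at 0.22 and Alad moved from 0.02 to -0.19. Within lanes, Cpox differed by 0.90 in lane 1 and -0.44 in lane 3 and Alas2 by 0.16 and -0.08. Of the 9 genes, 5 lay on the other side of 0 in lane 3 (n = 4) than in the fit over both lanes, Cpox, Alas2, Alad, Uros and Ppox, and 0 in lane 1 (n = 7). The half-widths of the 95% intervals ran from 0.455 to 0.763 in blood and from 0.101 to 0.594 in cortex. No gene of the set had groups that did not overlap in either tissue, as 0.197% of genes had in cortex and 0.221% in blood.

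**Figure D4:**
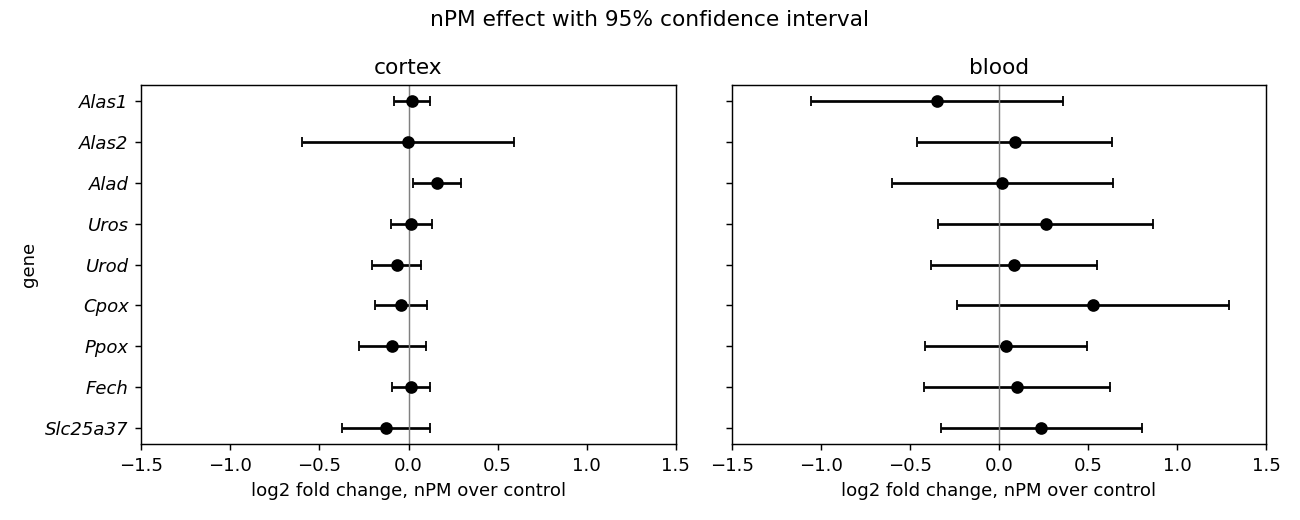
log2 fold change of nPM over control for each gene with its 95% confidence interval from edgeR, adjusted for sex and RIN, in cortex (12 libraries) and blood (11 libraries). All intervals span 0 but that of Alad in cortex, 0.02 to 0.29, whose adjusted p was 0.862.

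The genes around the pathway did not pass either. With nPM, 0 of 4 genes of heme breakdown, 0 of 12 of transport, 0 of 8 regulators and 0 of 12 of iron supply passed an adjusted p of 0.05 in cortex (edgeR), and 0 of 3, 0 of 10, 0 of 9 and 0 of 11 in blood. At an unadjusted edgeR p under 0.05 the only genes of these lists were Blvrb (log2 fold change -0.23) and the iron transporter Slc11a2 (-0.11), both in cortex. Of all genes, 5.67% were under 0.05 in cortex and 3.11% in blood.

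Model 2 added the exposure-by-sex term, the nPM effect in males minus that in females. In cortex 0 of 9 genes passed an adjusted p of 0.05 (edgeR; 0% of genes did) and 0 of 9 an unadjusted p under 0.05 (9.68% of genes did), or one under 0.005 (1.35% did). Beside Alad, the terms ran from -0.40 (SE 0.57) for Alas2 to 0.32 for Slc25a37.

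In blood 0 of 9 genes passed the adjusted p of 0.05 in edgeR (0% of genes did), with a smallest adjusted p of 0.452. At an unadjusted p under 0.05 there were 5 of 9 (10.7% of genes were), all with terms below 0, where 5.65% of genes were. DESeq2 gave the same 5, at adjusted p-values up to 0.519. They were Uros at -1.48 (SE 0.47), Cpox at -1.64 (SE 0.62), Alad at -1.31 (SE 0.51), Ppox at -0.98 (SE 0.39) and Urod at -0.88 (SE 0.41), with unadjusted edgeR p-values from 0.00546 for Uros to 0.0437 for Urod. The term lay below 0 for 8 of 9 genes, against 46% of all genes, with a median of -0.88 against 0.09. The 3 abundant genes had smaller terms, Slc25a37 at -0.77 (SE 0.52), Fech at -0.72 (SE 0.49) and Alas2 at -0.49 (SE 0.52), while Alas1 was at 0.01 (SE 0.72). No gene was under an unadjusted p of 0.005, as 0.902% of genes were.

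The libraries behind the terms were few. Cpox stood at 18 and 9.85 TMM-scaled CPM in the control females and at 18.7, 25.9 and 61.0 in the nPM females. In males it stood at 34.5, 18.5 and 35.6 in controls and 17.8, 21.9 and 45.5 with nPM. The nPM females were all above the control females, and the male groups overlapped. Female groups that did not overlap were found for 2 of the 9 genes, Cpox and Uros, and for 19% of all genes, which is common between 3 and 2 libraries. Uros had 2.85 and 2.58 TMM-scaled CPM in control females and 5.07, 4.09 and 7.29 in nPM females. In males it had 5.59, 2.55 and 4.71 in controls and 2.45, 3.37 and 4.80 with nPM. Its values rest on 36 to 148 counts per library over all of blood. Within females the log2 fold change was 1.46 for Cpox (edgeR adjusted p = 0.444) and 1.08 for Uros (adjusted p = 0.448), and within males -0.18 and -0.40.

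Alad, Ppox and Urod overlapped in both sexes. Alad stood at 5.29 and 4.01 TMM-scaled CPM in control females, at 6.51, 3.64 and 12.2 in nPM females, at 6.76, 6.51 and 8.33 in control males and at 3.73, 4.40 and 8.50 in nPM males. Ppox stood at 10.5 and 5.41, at 11.3, 7.32 and 13.9, at 9.93, 10.1 and 12.3, and at 8.78, 8.24 and 10.9 in the same order of groups. Urod stood at 144 and 81.0, at 172, 104 and 187, at 113, 119 and 142, and at 108, 95.4 and 137. For each of these genes at least 1 nPM female lay below the higher control female, and the same library was at the top.

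That library, nPM female replicate 3, was the highest in 8 of 9 genes in TMM-scaled CPM, and control female replicate 3 was the lowest in 6 of 9. In plain CPM control female replicate 3 stayed lowest for Cpox, Ppox and Fech. For Alas2 it had 19849, against 18822 in control female replicate 1. For Urod it had 103, against 90.9 in control male replicate 2, and for Slc25a37 3433, against 3098 in control male replicate 1. Its low place thus rests in part on the scaling. Without nPM female replicate 3 the term was -0.77 for Cpox, -0.74 for Alad, -0.83 for Ppox, -0.81 for Urod and -1.24 for Uros, and only Uros had an unadjusted p under 0.05 (edgeR adjusted p = 0.82). Without control female replicate 3, where the lone control female is assumed to vary like the other groups, it was -1.3 for Cpox, -1.33 for Alad, -0.60 for Ppox, -0.56 for Urod and -1.56 for Uros, and again only Uros had an unadjusted p under 0.05 (edgeR adjusted p = 0.964). Without nPM male replicate 3 it was larger for all 5, from -1.15 for Urod to -2.34 for Cpox, with a smallest adjusted p of 0.161. Of the 5, only Uros kept an unadjusted p under 0.05 whichever library was left out. Within lane 1 (n = 7, with 1 control female, assumed to vary like the other groups) the term was -1.99 for Cpox, -1.37 for Alad, -1.37 for Ppox, -1.16 for Urod and -1.15 for Uros, with a smallest adjusted p of 0.219 (edgeR), and there Uros had no unadjusted p under 0.05. Lane 3 held 1 blood library of each group, which leaves no spread for a test. With lane as a covariate it was -1.55 for Uros, -1.67 for Cpox, -1.41 for Alad, -0.99 for Ppox and -0.89 for Urod, with a smallest adjusted p of 0.401.

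**Figure D5:**
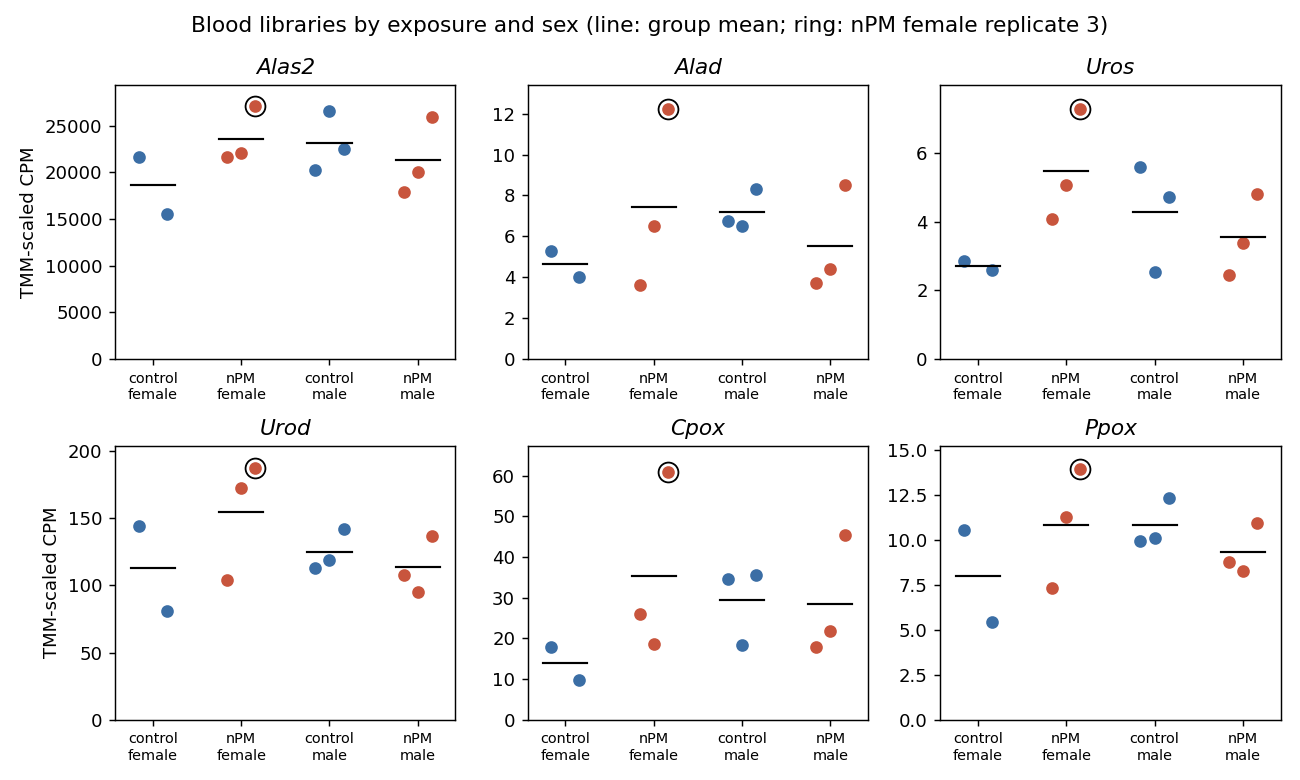
TMM-scaled CPM of 6 genes in the 11 blood libraries by sex and exposure, 1 point per library (blue control, red nPM), with lines at group means and a ring around nPM female replicate 3. The ringed library is the highest point in all 6 panels, and the nPM females lie above both control females for Uros and Cpox.

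Markers of cell types moved with the same term in blood. The erythroid list lay below 0 in 12 of 12 tested genes (7 at an unadjusted p under 0.05, median -0.99), the globins in 6 of 6 (median -0.66) and the platelet list in 7 of 7 (6 at an unadjusted p under 0.05, median -1.10). The neutrophil list lay above 0 in 9 of 9 (median 0.88), the B cell list in 7 of 7 (0.77) and the T and NK cell list in 8 of 8 (1.00). Of all genes, 46% lay below 0, with a median of 0.09. An unadjusted edgeR p under 0.05 was found for 10.7% of all genes, and together with a term below 0 for 5.65%. In plain CPM, nPM female replicate 3 had the highest platelet sum of the 11 libraries (458). It also had the lowest sums of B cell (9.80) and T and NK cell markers (4.82). Control female replicate 3 had the highest neutrophil (156), B cell (43.8) and T and NK cell sums (33.9). Genes of a list share these libraries, and the lists were not refitted without them. Summed erythroid CPM stood at 13432 and 10526 in control females and at 13159, 12347 and 16100 in nPM females. In males the sum stood at 13327, 10555 and 13057 in controls and at 12381, 12505 and 13100 with nPM. With that sum as a covariate the term was 0.062 for Cpox, -0.69 for Uros, -0.63 for Alad, -0.65 for Ppox and -0.67 for Urod, each with an edgeR adjusted p = 1. The part of the cell makeup of the samples in these terms was not tested. Of the genes around the pathway, the mitochondrial carriers Slc25a28 (2.82, on 1 to 17 counts per library) and Slc25a38 (-1.24), the ferritin Fth1 (-1.36), the erythroid factor Nfe2 (-1.02) and Eif2ak1 (-1.07) had the smallest unadjusted p-values, and 0 passed the adjustment.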

How the data were processed

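RNA of 12 blood and 12 cerebral cortex samples was depleted of ribosomal RNA and sequenced. Per the labels and the methods of the study, the authors trimmed reads with Trimmomatic, aligned the rest with HISAT2 (mm10) and assigned reads to Gencode genes by featureCounts 1.5.0-p3. The deposited counts, without normalization, were used for every test. The deposited gene table gave coordinates and lengths, and its mean RPKM values, made by the authors from the counts, were not used. Whether counting used strand is not given in the sources used here, so reads of overlapping antisense genes cannot be told apart.

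CPM are counts per 1000000 of the library total, and CPM per kilobase divide by gene length. The test was edgeR 4.0.16 quasi-likelihood F (two-sided, R 4.3.3) with TMM scaling, for genes counted at least 1 time in each library, and with Benjamini-Hochberg adjustment over all genes tested. The covariates of model 1 were sex and RIN, those of model 2 also the exposure-by-sex term, and the control tissues were compared with sex as covariate. The alternatives included DESeq2 1.42.0 and limma voom 3.58.1. Control female replicate 2 was left out of blood because leaving it out gave, in earlier processing, the mean expression of the study's blood table. Correlation p-values came from all orders for up to 8 values and from 100000 permutations otherwise, adjusted over 4 relations. Scripts were tested on simulated data. A count of 3 was taken as the floor, 0.0887 to 0.221 CPM. Promoters came from RefSeq (GRCm38.p6).

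The members, the other gene lists and the tests were chosen with earlier results of these data known. The named genes are the 9 members, the 5 genes most like each synthase among those with a mean of at least 50 counts, and of the other lists those that passed or, where none did, at most the 2 with the smallest p. 1 enzyme of the pathway is not analysed here.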

Additional observations from a re-analysis of the deposited data

Results flagged for a closer look

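The blood library of control female replicate 2, which was left out of the comparisons, had 13.79 CPM of Alas1 (292 counts), against 0.4413 to 1.482 CPM in the 5 other control blood libraries. It also had 11.66 CPM of Alad, against 4.602 to 7.797 CPM in those 5. Both values lay above every control blood library that was used. The same library had 79.9 summed CPM of neuronal markers, against 1.25 to 12.1 in the other control blood libraries, and a ratio of Alas2 to Alas1 per kilobase of 1927. Its astrocyte markers summed to 410 CPM, against 2.33 to 6.14 in those libraries. Over the nPM blood libraries the neuronal sum reached 43.8 CPM and the astrocyte sum 30.6 CPM. The part of other tissue in the Alas1 of the left-out library was not tested. In the 36 sets of libraries tested for a value far from the rest of its group, 0 held one, where chance gives about 1 in 20.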

How the results depend on the processing

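No paired analysis was possible because the labels give no replicate numbers and no link between a blood and a cortex library of 1 pup. With nPM, 0 of the 9 genes passed an adjusted p of 0.05 in either tissue under every alternative run, including each library left out in turn. Within lane 3 alone the direction turned in cortex for Alas1 (-0.038), Alas2 (0.013), Uros (-0.094) and Fech (-0.070) and in blood for Alas2 (-0.078), Alad (-0.25), Uros (-0.16), Cpox (-0.44) and Ppox (-0.038). With 1 library left out, Ppox in cortex ranged from -0.13 to 0.0035 (highest without nPM female replicate 2), and the exposure-by-sex term of Alas2 in cortex from -1.02 to 0.32 (highest without nPM female replicate 3). Within lane 2 the term in cortex turned for Alas1 (0.10), Uros (-0.025) and Urod (0.19), and both this and lane 1 in blood were chosen after seeing the data. The term in blood called 1 gene, Cpox (-1.63, edgeR adjusted p = 0.0391), when genes with at least 1 count in any library were tested, and was 0.062 for Cpox with erythroid CPM as covariate, a setting chosen after seeing the data like the library totals for tissue (Alad -1.79, Uros -2.84, Cpox -0.29, Ppox -0.76). The correlation of Alas2 with globins ranged from 0.65 to 0.97 in cortex with 1 library left out. In blood it was -0.88 in plain CPM and 0.98 with all 12 libraries, and ranged from 0.43 to 0.77 with 1 left out. With the erythroid list it ranged from -0.049 to 0.28 in cortex with 1 left out, and was 0.56 in plain CPM in blood (permutation p = 0.0713). The cause of these changes was not tested. Over all genes, calls ranged from 0 to 185 in cortex against 3, from 0 to 28 in blood against 0, from 0 to 379 and from 0 to 81 for the sex terms against 0, and from 7875 to 16131 between tissues against 8861. Depth limited Alas1 in blood most, at 6 to 30 counts.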

Other observations

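In blood, Alas1 stood at 0.970 to 1.34 TMM-scaled CPM in the 4 libraries of lane 3, which also carried cortex libraries, and at 0.471 to 1.27 in the 7 libraries of lane 1 that were used. Summed neuronal markers in the 4 libraries of lane 3 ranged from 9.09 to 12.1 CPM, and in the 7 of lane 1 from 1.25 to 43.8 with a median of 1.60 CPM. The 43.8 came from 1 library, nPM male replicate 2, which also had 30.6 summed CPM of astrocyte markers. The rest of lane 1 had at most 3.05 CPM of neuronal markers, below every library of lane 3. Erythroid transcripts in the same 4 libraries summed to 12381 to 13432 CPM.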
